A study of Mus musculus with 3 samples.

Results

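The 48 genes described here are interferon-induced genes, named in a list drawn up for this work, and all 48 had a row among the 13242 genes of the deposited count table. They were followed across the 9 cell clusters named by the authors (F1, F2, FP1, R1, R2, R3, RP1, RP2 and RP3) and the 3 treatment groups. The cells were macrophages sorted from the quadriceps of mice (Mus musculus) 1 week after volumetric muscle loss, a surgical wound that removes a piece of the muscle. The wound was treated with urinary bladder matrix (UBM, a decellularised tissue scaffold), with saline, or with polycaprolactone (PCL, a synthetic polyester). Each treatment was 1 library of droplet single-cell RNA sequencing. For strain, age, genotype, sorting markers and the number of mice behind a library, no value was given in the sources used. With 1 library a group there is no replicate, so no test was possible. Intervals beside a value are exact 95% intervals for counting error only, and a difference between libraries cannot be told apart from a difference between treatments.

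Interferons are secreted proteins of the antiviral defence. Type I interferons bind a receptor made of Ifnar1 and Ifnar2, and a transcription factor complex that includes Stat2 and Irf9 then binds the interferon-stimulated response element in the promoters of its targets. Interferon-gamma, made by T cells and natural killer cells, binds Ifngr1 and Ifngr2, and its signal reaches target genes through the gamma-activated sequence. Recruited monocytes and macrophages respond to both. The list was read in groups by role. An antiviral core of 24 members held the Ifit genes, Isg15 and its enzymes, the Oas genes and Irf7. It also held the sensors Ddx58, Dhx58, Ifih1 and Zbp1, with Rsad2, Mx1, Cmpk2, Rtp4, Ifi44, Cxcl10, Phf11b and Samd9l. The sensor kinase Eif2ak2 was not in the core. A group of 7 gamma-type members held Cxcl9 and the GTPases Gbp2, Gbp3, Gbp7, Irgm1, Igtp and Ifi47. The other 17 members, such as Ifitm3, Ly6e and the p200 genes Ifi203, Ifi204 and Ifi205, belonged to neither.

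The members lay on 16 chromosomes of the mouse genome (build GRCm38, GENCODE M21), and 24 of them stood in 10 groups of neighbours less than 300 kb apart. The Ifit genes were at chr19:34550694-34650009, Gbp7, Gbp3 and Gbp2 at chr3:142530342-142638008, Cxcl9 and Cxcl10 at chr5:92321347-92348889, and Rsad2 and Cmpk2 at chr12:26442746-26479837. RefSeq promoter windows (GRCm38.p6, 250 bases before to 50 bases after a start) were at hand for 39 of the 48 members and 27025 genes in all. The core of the interferon-stimulated response element, searched as GAAA, any 2 bases, GAAA on either strand, occurred in 24 of the 39 (61.5%), against 1055 of 26986 other genes (3.91%). It was present in 11 of 19 core members and 5 of 7 gamma-type members, and 10 members had more than 1 match. The gamma-activated sequence (TTC, any 3 bases, GAA) occurred in 9 of the 39 (23.1%), against 9.53% of other genes. It was present in 2 of 19 core members (10.5%) and 2 of 7 gamma-type members. A match is a description of the letters, not a sign that a factor was bound.

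The stretches below show the element in 3 of the 4 Ifit members, in all 3 Gbp members and in 4 others. Ifit2 is not among them, since its windows held no match. They were chosen after the matches were seen. Each is from RefSeq, GRCm38.p6, written 5′ to 3′ on the gene's own strand, with the matches in capitals. There are 20 bases on either side, except that the Irgm1 stretch has fewer after its matches. Overlapping matches run together as 1 stretch of capitals. The genes Ifit1, Ifit3, Ifit3b, Gbp2, Gbp3 and Gbp7 lie on the plus strand of the genome and Isg15, Cxcl10, Bst2 and Irgm1 on the minus strand.
Ifit1, chr19:34640765-34640833: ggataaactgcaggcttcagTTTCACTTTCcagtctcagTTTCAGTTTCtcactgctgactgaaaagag
Ifit3, chr19:34583353-34583436: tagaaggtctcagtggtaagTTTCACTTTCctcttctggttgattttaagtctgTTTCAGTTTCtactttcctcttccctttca
Ifit3b, chr19:34607749-34607832: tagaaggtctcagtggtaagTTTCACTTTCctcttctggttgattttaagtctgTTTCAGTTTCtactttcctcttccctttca
Isg15, chr4:156200855-156200916: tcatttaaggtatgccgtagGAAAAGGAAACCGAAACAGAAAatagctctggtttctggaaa
Cxcl10, chr5:92349073-92349122: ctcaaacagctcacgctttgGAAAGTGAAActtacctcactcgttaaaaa
Bst2, chr8:71537567-71537622: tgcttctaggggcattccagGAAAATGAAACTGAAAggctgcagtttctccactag
Gbp2, chr3:142620584-142620633: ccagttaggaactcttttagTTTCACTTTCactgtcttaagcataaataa
Gbp3, chr3:142559979-142560034: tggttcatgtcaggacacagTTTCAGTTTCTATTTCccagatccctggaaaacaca
Gbp7, chr3:142530263-142530312: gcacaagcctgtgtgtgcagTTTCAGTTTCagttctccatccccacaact
Irgm1, chr11:48871421-48871470: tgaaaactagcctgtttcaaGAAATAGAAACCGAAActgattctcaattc
The printed stretches of Ifit3 and its near-copy Ifit3b were identical at 84 of 84 positions. Transcript reads may also be divided between such near-copies, so the split of counts between Ifit3 and Ifit3b, and within the Oas, Gbp and p200 groups, is uncertain. Of 36 matches in the members, 27 (75%) began in the last 200 bases before the start, where 67.8% of the matches of all windows began. No match lay in the windows of 15 members, Ifit2, Cxcl9, Irf7, Oasl1 and Oasl2 among them, which says only that these letters were not in those windows of 300 bases.

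The libraries differed in size, which sets the precision of each value. UBM held 2280 cells and 14586276 unique molecular identifiers (UMIs, counts of captured transcripts), saline 341 cells and 1888343 UMIs, and PCL 1753 cells and 11006118 UMIs. The median cell had 5476.5, 4594 and 5662 UMIs. Levels below are UMIs summed over cells per 1000000 UMIs (CPM), and 3 counts, the floor used for a gene with none, came to 0.206, 1.59 and 0.273 CPM. The share of cells with over 10% mitochondrial UMIs was 2.06%, 6.74% and 1.03%, and 6 cell barcodes occurred in more than 1 library. Macrophage markers were present in every library (8 of 8 genes). Muscle fibre transcripts summed to 37.0, 588 and 26.1 CPM and the neutrophil list to 64.1, 214 and 1618 CPM in UBM, saline and PCL, and their part in the differences below was not tested. Cells of F1 were 1.89% of the UBM library, 18.8% of the saline library and 26.0% of the PCL library, and R2 was found in UBM alone (254 cells, against 0 in the other libraries).

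Across whole libraries, most members were lower in UBM than in the other 2 libraries, while PCL and saline differed in a few members, in both directions. The 24 core members summed to 462 CPM (451–473) in UBM, 1253 (1203–1305) in saline and 1435 (1413–1458) in PCL. The gamma-type members had another order, with 112 CPM in UBM, 321 in saline and 156 in PCL. A member was counted as higher or lower when it reached 10 CPM in 1 of the libraries compared and differed by at least 1.5-fold. In UBM against saline, 40 of 47 members were lower and 0 higher, where 18.5% of all genes were lower and 9.50% higher. The median log2 ratio, with 10 CPM added to each value, was -0.89 for the members and -0.07 for all genes. In PCL against UBM, 39 of 46 members were higher and 0 lower (all genes 17.2% and 8.89%), with a median of 0.82 against 0.11. In PCL against saline, 5 of 48 were higher and 8 lower (all genes 12.7% and 11.9%), with a median of -0.02 against 0.04. With ribosomal protein genes and Malat1 taken out of the totals, that split was 2 higher and 9 lower, and without the top cell of each gene 8 were higher. The 3 comparisons share libraries, so they are not independent of each other.

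**Figure D1:**
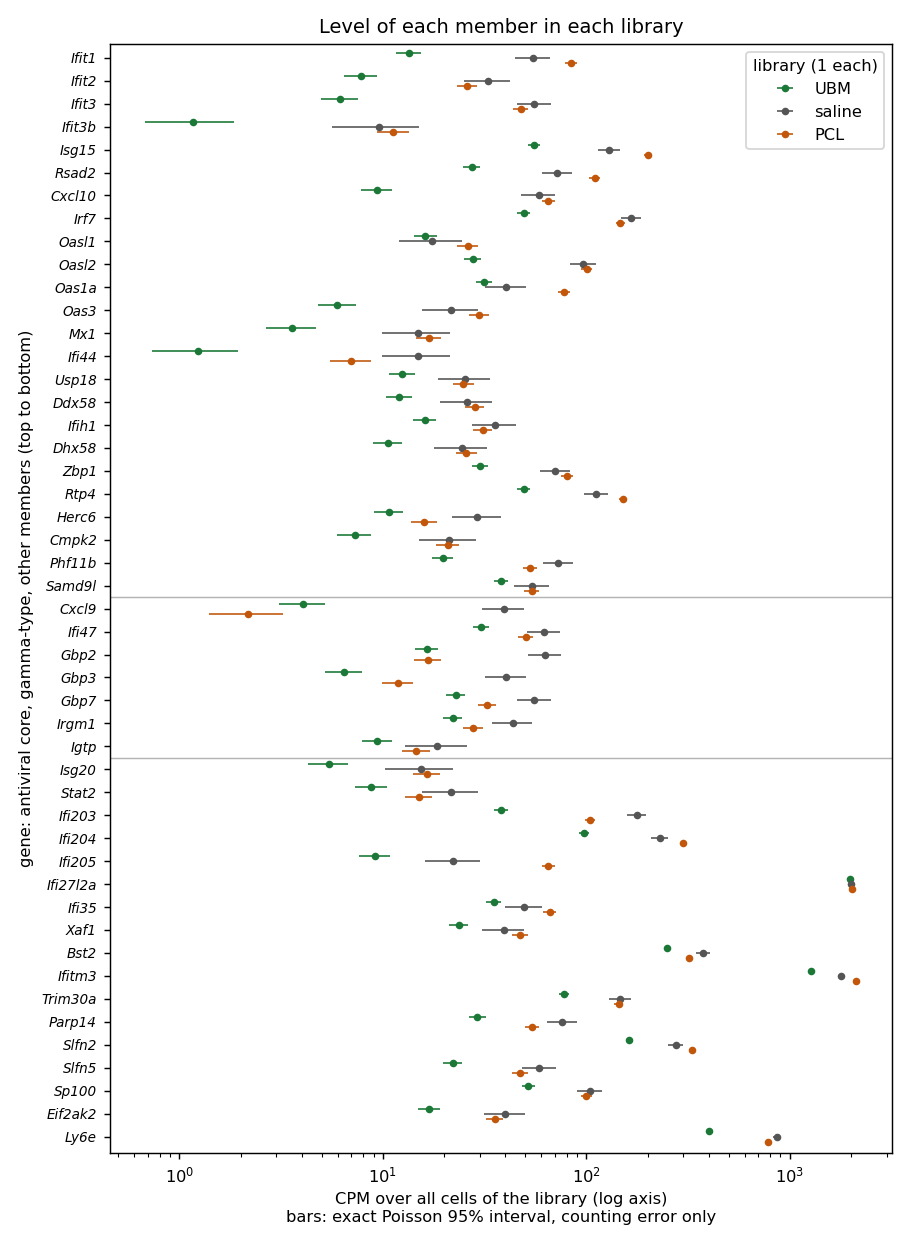
Level of each member in the UBM, saline and PCL libraries, in CPM on a log axis, with 1 point per library and bars for the exact 95% Poisson interval. Most core members sit lowest in UBM, Cxcl9 and the Gbp genes are highest in saline, and Ifi27l2a is at 1968, 2002 and 2021 CPM.

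Among the antiviral effectors, Ifit1, whose product binds foreign RNA ends, stood at 13.4 CPM in UBM, 54.5 in saline and 84.1 in PCL. It was 4.06-fold (3.17–5.18) higher in saline than in UBM and 1.54-fold (1.26–1.91) higher in PCL than in saline. Ifit2 stood at 7.82, 32.8 and 26.0 CPM and Ifit3 at 6.17, 55.6 and 47.7. Both were therefore far below the other libraries in UBM, while their PCL and saline intervals overlapped. Isg15, a ubiquitin-like protein attached to other proteins, was at 55.2, 130 and 201 CPM. Rsad2 (viperin), which makes a nucleotide that ends RNA chains, was at 27.4, 72.0 and 110 CPM. Isg15 and Rsad2 were ordered UBM, saline, PCL with intervals that did not overlap. Mx1, a GTPase that traps viral particles, was at 3.56, 14.8 and 16.8 CPM, and Ifi44 at 1.23, 14.8 and 6.996.

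The oligoadenylate synthetase family, whose products activate an RNA-degrading enzyme, was uneven. Oasl2 stood at 27.6, 96.4 and 100.3 CPM and Oas3 at 5.96, 21.7 and 29.7, both lower in UBM. Oas1a stood at 31.4, 40.2 and 77.7 CPM, so that PCL was 1.93-fold (1.53–2.47) above saline, and saline 1.28-fold (0.992–1.64) above UBM. Oasl1, which restrains Irf7 translation, was at 16.2, 17.5 and 26.1 CPM, and its UBM and saline intervals overlapped.

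The sensors and regulators of the core shared the low UBM value. The RNA sensors Ddx58 (12.1, 25.9 and 28.3 CPM), Ifih1 (16.1, 35.5 and 31.1) and Dhx58 (10.6, 24.4 and 25.7) were each more than 2-fold lower in UBM than in saline. Irf7, the transcription factor that amplifies type I interferon, stood at 49.2, 165 and 147 CPM, a 3.36-fold (2.93–3.84) difference between saline and UBM. Zbp1, a sensor of unusual nucleic acid helices, was at 30.03, 70.4 and 80.6 CPM, and Usp18, which removes Isg15 from proteins and dampens the type I receptor, at 12.5, 25.4 and 24.9. PCL and saline intervals overlapped for all of these.

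The chemokines Cxcl10 and Cxcl9 attract T cells through the same receptor, and they did not follow each other. Cxcl10 stood at 9.32 CPM in UBM, 58.3 in saline and 65.1 in PCL. Cxcl9 stood at 4.04, 39.2 and 2.18 CPM, so that saline was 18.0-fold (11.2–29.8) above PCL. Single cells carried much of Cxcl9. The top cell, in FP1, held 28 of 74 UMIs (37.8%) in saline and 58.3% of 24 UMIs in PCL. The GTPases that act on vacuoles of intracellular microbes were also highest in saline. Gbp2 stood at 16.5, 62.5 and 16.6 CPM, and Gbp3 at 6.44, 40.2 and 11.8. Gbp7 was at 22.8, 55.6 and 32.5 CPM and Irgm1 at 22.01, 43.4 and 27.9. All 7 gamma-type members were lower in UBM than in saline, and 5 of 7 in PCL than in saline.

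The p200 genes, whose products bind DNA, differed among themselves although they are neighbours on chromosome 1. Ifi203 was highest in saline (38.1, 177 and 104 CPM), Ifi204 in PCL (97.4, 229 and 299.8) and Ifi205 in PCL by 2.92-fold (2.14–4.09) over saline (9.12, 22.2 and 65.1). Of the 47 members measured in UBM and saline, 7 were not at least 1.5-fold lower: Oasl1, Oas1a, Ifi27l2a, Ifi35, Bst2, Ifitm3 and Samd9l. Ifi27l2a was the flattest, at 1968, 2002 and 2021 CPM. Ifitm3, which blocks fusion of viruses at entry, was at 1270, 1792 and 2108 CPM, and Bst2 (tetherin), which holds budding virus at the cell surface, at 250.2, 374 and 321.

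By cluster, with libraries pooled, F1 had the highest level of 41 of the 48 members, where 11.3% of all 8415 genes measured were highest in F1. RP3 was highest for 4 (all genes 14.2%), namely Stat2, Ifi27l2a, Gbp7 and Ly6e. F2 was highest for Isg20 and Slfn2, and R3 for Cxcl9. RP3 came second for 28 members. The clusters were built by the authors from the same counts, so these orders are a description. They also mix libraries in different proportions. Core members summed to 3479 CPM (3417–3541) in F1, 1575 in F2, 1225 in RP3, 577 in FP1 and 506 in R1, with R2, RP2, R3 and RP1 between 295 and 391.

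**Figure D2:**
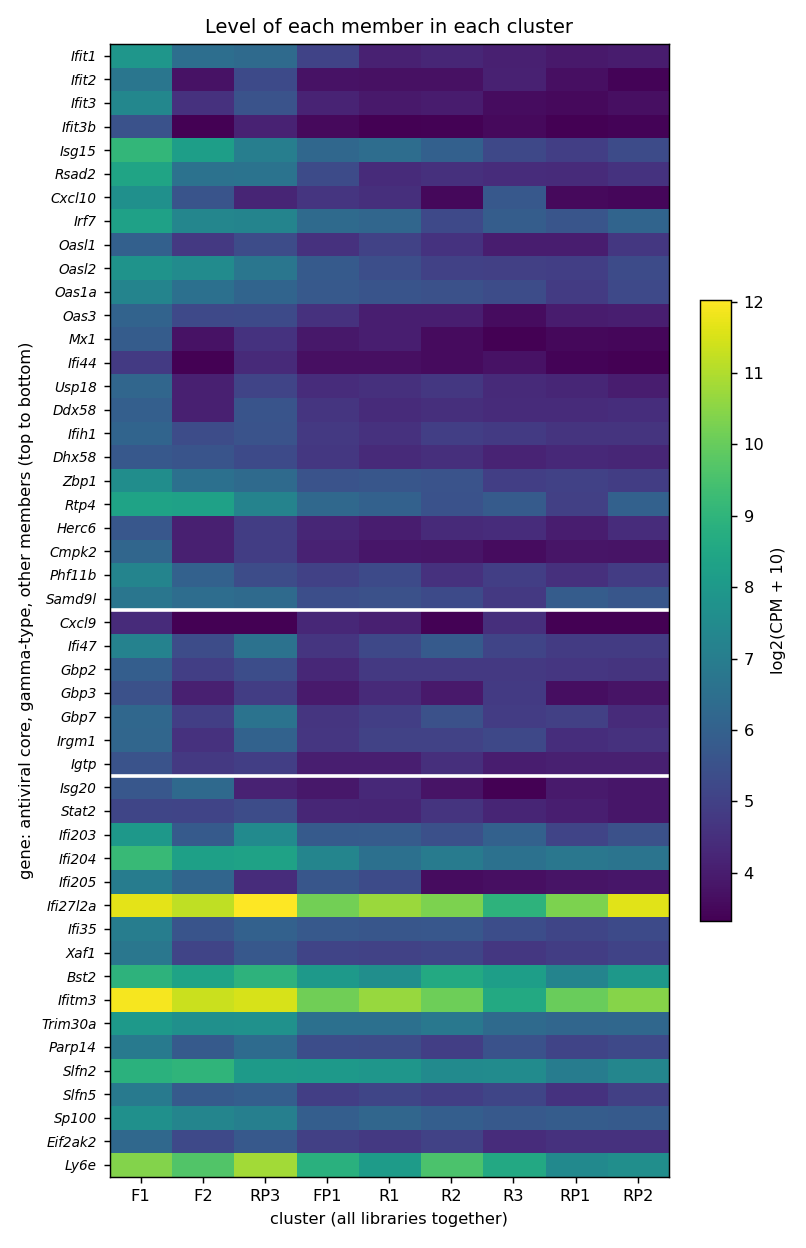
Level of each member in the 9 clusters with all 3 libraries pooled, as log2 of CPM with 10 CPM added, genes in rows by role and clusters in columns. The F1 column is the brightest for 41 of 48 members, and Ifitm3, Ifi27l2a and Ly6e are high in most columns.

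The gap between F1 and the other clusters was wide for the Ifit genes and for Cxcl10. Ifit1 was at 228 CPM in F1, 79.2 in F2, 69.8 in RP3 and 5.13 in RP1. Ifit3 was at 153 CPM in F1 and 36.8 in RP3, and F1 held 74.6% of all its UMIs. Cxcl10 was at 198 CPM in F1, 42.4 in R3, 37.9 in F2 and 8.79 in RP3, so its second cluster was another one than for most members. At the other end, F1 held 20.7% of Ifi27l2a, which was at 4166 CPM in RP3, 3235 in F1, 3187 in RP2 and 482 in R3. Ly6e was at 1804 CPM in RP3, 1354 in F1 and 164 in RP1. Gbp7 was at 88.5 CPM in RP3 and 65.6 in F1. Ifitm3 was at 3879 CPM in F1, 2900 in RP3 and 378 in R3. The gamma-type members summed to 398 CPM in F1 and 304 in RP3, closer together than the core sums.

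Within F1, fewer members differed between UBM and the other libraries than over whole libraries, and they ran both ways. In PCL against saline, more members were lower and fewer higher than over whole libraries. The library-wide differences and the F1 differences were thus not the same. Core members summed to 3886 CPM in UBM, 4103 in saline and 3364 in PCL. The gamma-type members summed to 521, 800.1 and 337 CPM. In UBM (43 cells) against saline (64 cells), 5 of 48 members were higher and 17 lower, beside 24.7% and 26.1% of all genes. In PCL (455 cells) against saline, 2 were higher and 16 lower (24.3% and 16.6%), and all 7 gamma-type members were among the lower. In PCL against UBM, 7 were higher and 9 lower (26.1% and 17.4%), or 13 and 5 without the top cell of each gene.

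The 5 members higher in UBM F1 cells than in saline F1 cells were Rsad2, Isg15, Ifit2, Cmpk2 and Oas1a. Rsad2 was at 569 CPM in UBM, 302 in saline and 308 in PCL, a UBM to saline ratio of 1.88 (1.46–2.43). Isg15 was at 768, 484 and 517 CPM, a ratio of 1.59 (1.29–1.95). Ifit2 was at 235, 140 and 79.2 CPM, a ratio of 1.69 (1.15–2.50). Cmpk2, the nucleotide kinase next to Rsad2, was at 145, 74.0 and 54.5 CPM. Few UBM cells carried these values, from 9 with Cmpk2 to 28 with Isg15. With the top cell of each gene left out, the ratio was 1.71 for Rsad2, 1.61 for Ifit2, 1.44 for Isg15 and 1.43 for Cmpk2, and 3 members in place of 5 were at least 1.5-fold higher.

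Other core members were lower in UBM F1 cells. Irf7 was at 167, 461 and 305 CPM in UBM, saline and PCL, and Oasl2 at 134, 265 and 214. Ifit1 was level, at 254, 233 and 224 CPM, although over whole libraries it was 4.06-fold higher in saline than in UBM. Cxcl10 was likewise at 170, 228 and 197 CPM. Herc6, the mouse ligase for Isg15, was at 47.1, 94.0 and 35.1, and Parp14, an ADP-ribosyltransferase, at 68.8, 211 and 103.

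In PCL F1 cells the gamma-type members were below saline one by one. Gbp2 was at 57.9, 168 and 35.8 CPM in UBM, saline and PCL, a PCL to saline ratio of 0.213 (0.153–0.298). Gbp3 was at 36.2, 96.8 and 27.1 CPM, Irgm1 at 97.8, 120 and 53.5, and Igtp at 50.7, 65.5 and 32.6. Cxcl9 rested on a handful of cells, with 12, 22 and 5 UMIs in 1, 3 and 4 cells. The 2 members higher in PCL were Oas1a (156, 94.0 and 148 CPM) and Ifi205 (61.6, 71.2 and 127), the latter by 1.79-fold (1.19–2.80). Monocyte markers in F1 summed to 1220, 1110 and 2560 CPM and macrophage markers to 13552, 15584 and 8388 in the same libraries. The neutrophil list summed to 43.5, 34.2 and 313 CPM with Ly6g at 0 UMIs. The T or NK cell genes in the table (4) had 0 UMIs in F1.

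Outside F1 the members were still mostly lower in UBM than in saline, by a smaller median than over all cells. With F1 taken out, 22 of 40 members were lower in UBM than in saline and 1 higher (all genes 18.6% and 9.27%), with a median log2 ratio of -0.44 against -0.08. In PCL against UBM, 17 of 38 were higher and 1 lower (17.1% and 9.11%). In PCL against saline, 9 of 41 were higher and 6 lower (13.7% and 13.3%), with 8 of 19 core members higher and 4 of 6 gamma-type members lower. The median log2 ratio there was 0.07 for the core and -1.002 for the gamma-type members. Igtp in UBM against saline (0.063), Ifi47 in PCL against UBM (-0.17) and Igtp in PCL against UBM (-0.037) changed the sign of their log2 ratio without F1.

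**Figure D3:**
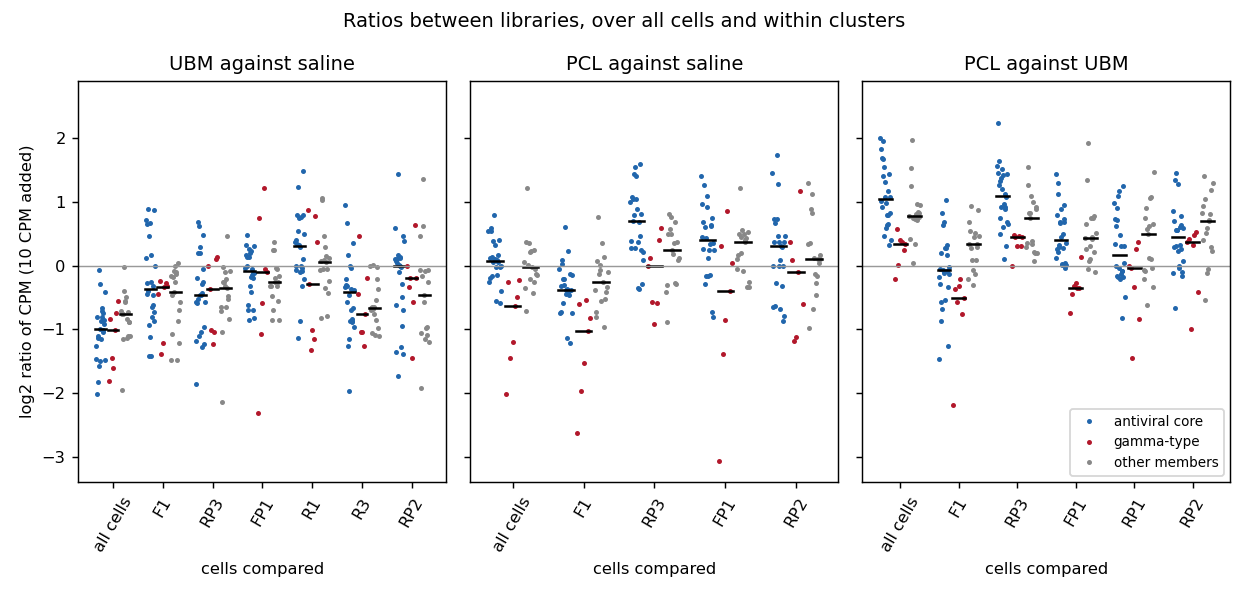
Log2 ratio of each member (10 CPM added to each value) for UBM over saline, PCL over saline and PCL over UBM, over all cells and within each cluster that had at least 30 cells in both libraries. Each point is a member, coloured by role, and the black bar is the median over all listed members of that role, those below 10 CPM included, so bars can differ from the medians in the text. Core points in RP3 lie mostly above 0 for PCL over saline (15 of 24 members higher by 1.5-fold), and in F1 they lie on both sides.

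RP3 had the largest core sum outside F1 in each library, among clusters of at least 30 cells, at 776 CPM in UBM, 1176 in saline and 1997 in PCL. It had 200, 68 and 92 cells. In PCL against saline, 19 of 47 members were higher and 5 lower (all genes 26.5% and 22.1%), with 15 of 24 core members higher and 0 lower. With intervals that must exclude 1, it was 11 higher and 2 lower. In UBM against saline, 3 of 44 were higher and 22 lower (18.2% and 32.0%). In PCL against UBM, 32 of 46 were higher and 0 lower (28.3% and 10.1%), and the median log2 ratio was 0.86 against 0.18 for all genes.

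Ifit1 in RP3 was at 37.1, 59.6 and 129 CPM in UBM, saline and PCL, and Ifit3 at 8.24, 55.8 and 75.8, a PCL to UBM ratio of 9.20 (4.28–22.6) for Ifit3. Isg15 was at 66.0, 104 and 227 CPM, 2.18-fold (1.44–3.41) higher in PCL than in saline. Irf7 was at 87.6, 130 and 234 CPM, a PCL to saline ratio of 1.80 (1.23–2.69). All 4 genes were ordered UBM, saline, PCL by their values in RP3, which was not their order in F1. Zbp1 was at 50.5, 33.5 and 122 CPM, with UBM above saline. Rsad2 was at 78.3, 67.0 and 115 CPM, and 44 of its 76 UMIs in UBM came from 1 cell. Ifi27l2a, flat over whole libraries, was at 3255, 3902 and 5812 CPM. Ifi203 was highest in saline (82.4, 398 and 212) and Gbp7 too (67.0, 149 and 96.5). Cxcl9 had 0 UMIs in RP3 in every library, and Cxcl10 had 6, 0 and 10.

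FP1, the largest PCL cluster with 1036 cells, had 99 cells in UBM and 72 in saline. In PCL against saline, 14 of 40 members were higher and 6 lower (16.9% and 15.1%), with 10 of 18 core members higher. In PCL against UBM, 17 of 37 were higher and 3 lower (19.3% and 14.2%), or 27 and 0 without the top cell of each gene, and in UBM against saline 2 of 36 were higher and 14 lower (18.8% and 22.3%). Ifit1 was at 3.78, 4.09 and 27.3 CPM, from 3, 2 and 178 UMIs, and Ifit3 had 1, 0 and 62 UMIs. Rsad2 was at 10.1, 8.19 and 33.7 CPM. PCL was thus the high library in FP1 for these effectors, with low counts in the others. Ifi205 was at 5.04, 14.3 and 46.9 CPM, 3.27-fold (1.57–8.21) higher in PCL than in saline. Gbp2 was again highest in saline (11.3, 34.8 and 7.21). Cxcl9 was at 11.3, 96.2 and 2.76 CPM, from 2, 4 and 5 cells, with 28 of 47 saline UMIs in 1 cell.

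The remaining clusters could be compared only in part. In R3, UBM against saline, 28 of 39 members were lower and 3 higher (27.8% and 19.2%), as with Oasl2 at 10.2 and 69.1 CPM and Irf7 at 36.4 and 102. In RP2, 18 of 34 were lower in UBM than in saline and 4 higher (26.2% and 23.1%), and 12 of 38 were higher in PCL than in saline and 9 lower (29.0% and 24.6%). In PCL against UBM within RP2, 24 of 36 were higher and 2 lower (23.0% and 16.6%), and within RP1 18 of 34 were higher and 5 lower (28.9% and 19.9%). The RP1 count was 11 higher and 10 lower without the top cell of each gene and 11 higher under TMM or median of ratios scaling, near the share of all genes. With intervals that must exclude 1, it was 10 higher and 1 lower in RP1, 15 higher and 0 lower in RP2 for PCL against UBM, and 2 higher and 1 lower in RP2 for PCL against saline. Ifi27l2a was among the 4 members higher in UBM than in saline within RP2, at 3365 CPM in UBM, 1298 in saline and 2308 in PCL.

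R1 was the exception among the clusters compared, by the 1.5-fold rule alone. In UBM (289 cells) against saline (46 cells), 12 of 37 members were higher and 7 lower (21.5% and 26.5%), and 8 of 16 core members were higher and 2 lower. For 5 of the 12 the interval of the ratio also excluded 1, as it did for all 7 lower members. Core members summed to 494 CPM in UBM and 343 in saline R1 cells. Gamma-type members summed to 100.3 and 163 CPM, and all members outside the core to 4341 and 5026. R1 held other markers as well. The T or NK cell genes (4 of 4) summed to 194 CPM in UBM R1 cells, from 9 of 289 cells, with 0 UMIs in saline R1 cells, and without the cells that had such a UMI the counts were again 12 and 7. Classical dendritic cell markers summed to 76.3 CPM in UBM and 499.5 in saline R1 cells, and their part in the contrast was not tested. Irf7 was at 62.7 CPM in UBM and 20.8 in saline, a ratio of 3.01 (1.35–8.34). Isg15 was at 73.4 and 38.2 CPM, and Rtp4, a chaperone-like protein, at 56.9 and 13.9, the last from 4 saline UMIs. Irf7 was thus higher in UBM in R1 and lower in UBM in F1, FP1, R3 and RP2, a difference that was not tested. The gamma-type members were divided in R1. Gbp7 (16.5 and 48.6 CPM), Gbp2 (12.0 and 45.1) and Gbp3 (7.01 and 24.3) were lower in UBM, Ifi47 was within 1.5-fold (23.9 and 31.2), Irgm1 was higher (25.2 and 10.4, from 3 saline UMIs), and Cxcl9 had 20 UMIs in UBM and 0 in saline. Cxcl10 was at 10.3 and 34.7 CPM.

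F1 was itself uneven. To set depth aside, cells were reduced at random to 2500 UMIs each (thinned). Shallower cells, 395 of 4374 over the whole series, were dropped, and 519 of 562 F1 cells remained. The median F1 cell then had a UMI for 3 of the 24 core members, with quartiles of 2 and 6.5 and a range of 0 to 18. None was found in 45 cells (8.67%). The medians were 3 in UBM, 6 in saline and 3 in PCL (42, 48 and 429 cells), and the highest cells had 15, 15 and 18. In RP3 the medians were 1, 1 and 3. F1 cells of every library therefore spanned the range from few core members to more than 10.

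**Figure D4:**
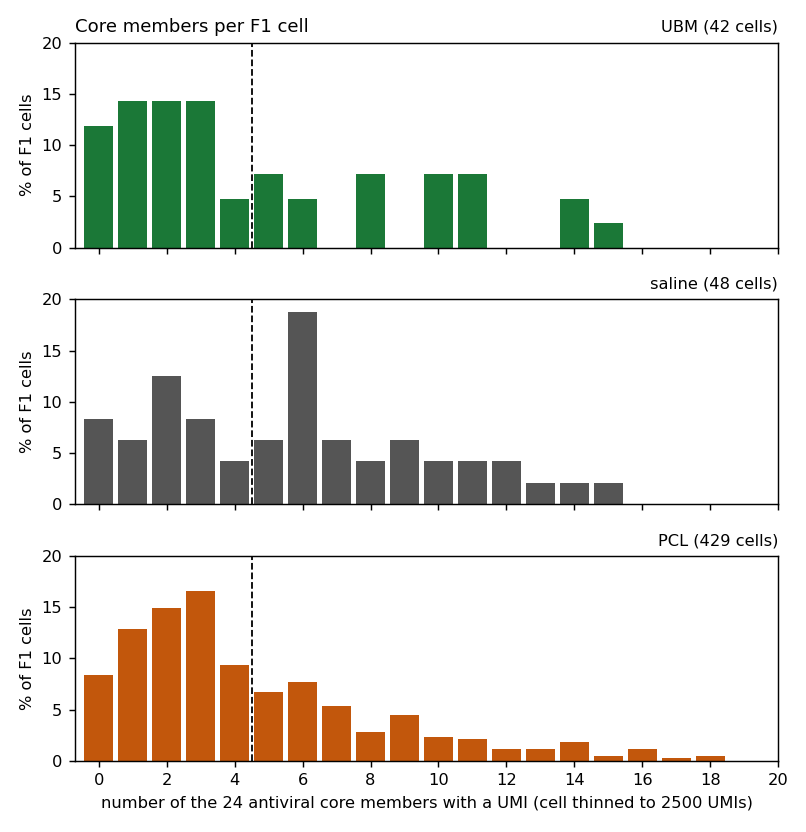
Number of the 24 core members with a UMI per F1 cell after thinning to 2500 UMIs, as the percentage of each library's F1 cells (UBM, saline and PCL in separate panels, 42, 48 and 429 cells). The dashed line marks the limit of 5 members used for interferon-high cells, and saline has a larger share to its right (60.4%) than UBM (40.5%) or PCL (38.0%).

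For many members, the cells with most UMIs of the gene held most of its transcripts. The 57 F1 cells with most UMIs of a given gene, 10% of F1, held a median of 64.5% of a core member's UMIs, from 35.5% for Rtp4 to 100% for Ifi44. For the members not in the core the median was 46.9%, with 24.4% for Ifitm3 at the low end. The 10% of F1 cells with most UMIs of any gene held 19.4% of all UMIs. A gene with few UMIs gives a high share by construction, as with Ifi44, whose 63 UMIs lay in 46 cells. Members differed in level, so neither the medians nor the 19.4% compare genes of like count, and they do not measure unevenness alone. At similar counts, Cxcl10 had 694 UMIs in 93 F1 cells and Oasl2 746 UMIs in 328. Cxcl10 had 94.8% of its UMIs in its top 57 cells, and 1 cell held 119 UMIs (10.3%) of Rsad2.

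After thinning, Ifitm3 was found in 98.3% of F1 cells and Ifi27l2a in 97.1% (99.1% and 99.5% unthinned). Isg15 was found in 45.9%, Rtp4 in 49.1%, Irf7 in 42.6%, Ifit1 in 21.8%, Cxcl10 in 12.1% and Cxcl9 in 1.16% (62.1%, 69.0%, 63.0%, 31.9%, 16.5% and 1.42% unthinned). No cluster is known to lack these genes, and the thinned shares in RP2, a low cluster, were 5.64% for Isg15, 9.25% for Rtp4, 9.54% for Irf7, 1.01% for Ifit1 and 0.289% for Cxcl10. At a fixed depth the share of cells with a gene follows its level. Ifitm3 had 13604 UMIs in F1, Rtp4 1119 and Cxcl9 39. These shares alone therefore do not show different kinds of members or spread between cells. The core members tended to be in the same cells. Of 238 F1 cells with Isg15, 37.0% also had Ifit1, 38.7% Rsad2 and 32.8% Ifit3, against 8.90%, 7.83% and 5.69% of the 281 without. The ratio was smaller for some other core members. It was 30.3% against 21.4% for Oas1a, 54.6% against 32.4% for Irf7 and 63.0% against 37.4% for Rtp4. Of the 6 cells with Cxcl9, 0 had Ifit1 and 2 had Isg15.

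Cells with a UMI for at least 5 of the 24 core members after thinning were counted as interferon-high. This limit cuts a continuous range and is not a cell type, and 93 cells stood at the limit and 145 were 1 gene short of it. Of 340 such cells among 3979, 209 (61.5%) were in F1, 50 in RP3, 39 in FP1 and 11 in R1. Over whole libraries they were 54 of 2118 UBM cells (2.55%), 44 of 262 saline cells (16.8%) and 242 of 1599 PCL cells (15.1%). In F1 they were 40.5% (25.6–56.7) of UBM cells, 60.4% (45.3–74.2) of saline cells and 38.0% (33.4–42.8) of PCL cells. Unthinned, these F1 shares were 65.1%, 71.9% and 69.7%. The F1 shares for UBM and PCL thus differed by less than their counting error.

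Outside F1, interferon-high cells had a share of 1.78% (1.26–2.45) in UBM, 7.01% (3.98–11.3) in saline and 6.75% (5.38–8.34) in PCL, and unthinned 8.85%, 16.6% and 20.5%. In RP3 they were 5.14% (2.38–9.54), 22.4% (11.8–36.6) and 36.1% (25.9–47.4), and unthinned 19%, 23.5% and 62.0%. After thinning, the RP3 interval of UBM did not overlap those of the other libraries, while saline and PCL overlapped. Unthinned, UBM (13.8–25.1) and saline (14.1–35.4) overlapped and PCL (51.2–71.9) stood apart. In FP1 they were 1 of 89 UBM cells, 0 of 59 saline cells (exact upper limit 6.06%), and 38 of 946 PCL cells (4.02%). In R1, where the core sum was higher in UBM than in saline, the shares did not differ beyond counting error. They were 2.88% (1.25–5.59) of 278 UBM cells and 5.13% (0.627–17.3) of 39 saline cells. F1 held 31.5% of the interferon-high cells of UBM, 65.9% of those of saline and 67.4% of those of PCL.

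**Figure D5:**
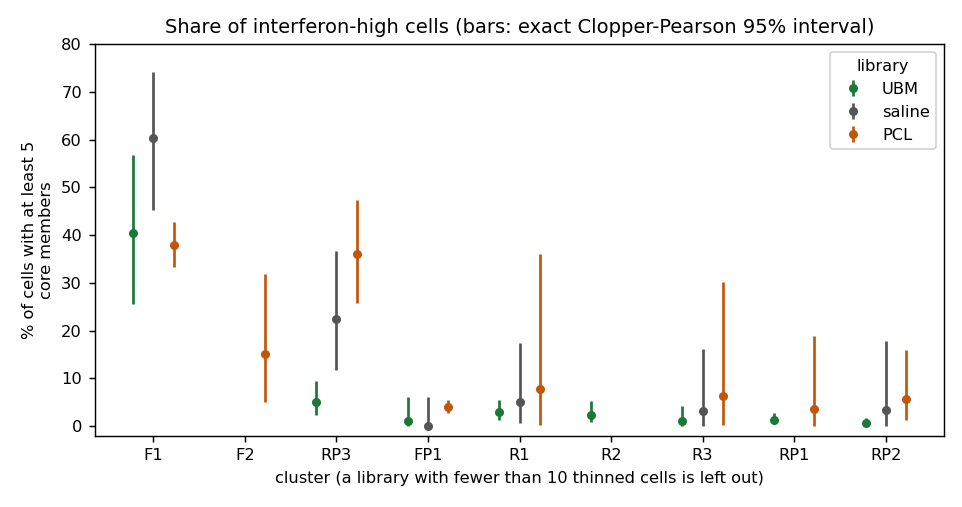
Share of cells with a UMI for at least 5 of 24 core members after thinning to 2500 UMIs, by cluster and library, with exact 95% Clopper-Pearson intervals. Library and cluster pairs with fewer than 10 thinned cells are not drawn. F1 is high in all 3 libraries (38.0% to 60.4%), and RP3 runs from 5.14% in UBM to 36.1% in PCL.

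Interferon-high F1 cells were then compared with the other F1 cells for genes that had no part in the limit, with the 3 libraries pooled. Core and other members tended to be in the same cells, so this describes which members went with the core. Gbp2 was at 99.7 CPM in 209 interferon-high cells and 17.2 in the 310 others, a ratio of 5.79 (3.97–8.65). Ifi47 was 5.05-fold (4.04–6.35) higher, Ifi205 4.83-fold (3.82–6.16), Irgm1 4.69-fold, Isg20, an RNA-degrading enzyme, 4.21-fold, and Eif2ak2, the kinase that halts translation on viral RNA, 3.38-fold. The GTPases thus went with the core in F1 cells of the pooled libraries, although over libraries they had another order. Saline gave 29 of the 209 interferon-high cells and 19 of the 310 others. Gbp2 was at 168 CPM in saline F1 cells and 35.8 in PCL F1 cells. The mix of libraries thus enters these ratios, and its part was not tested. Cxcl9 differed by 1.81-fold (0.912–3.66), an interval that includes 1. Smaller ratios were found for Bst2 (2.25), Ifi204 (2.05), Ifi27l2a (1.47), Ly6e (1.32), Slfn2 (1.29) and Ifitm3 (1.21). Median depth before thinning was 6589 UMIs in interferon-high and 5520 in other F1 cells of UBM, 5567 and 6509 in saline, and 5993 and 6391 in PCL. Among monocyte markers, Plac8 (1.53) and Ly6c2 (1.52) were higher in interferon-high F1 cells and Ccr2 (0.836), Vcan (0.734) and Chil3 (0.684) lower, and the list summed to 2440 CPM against 2200. The neutrophil list summed to 332 CPM against 221, with Ly6g at 0 UMIs in both, and the part of these markers was not tested.

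The pathway around the members was read from a list of 38 genes, of which 31 were in the table. The 7 ligand genes were not analysed here. In UBM against saline 2 of 28 were higher and 10 lower, in PCL against saline 2 of 27 were higher and 6 lower, and in PCL against UBM 10 of 27 were higher and 2 lower. Over all genes these shares were 9.50% and 18.5%, 12.7% and 11.9%, and 17.2% and 8.89%, so the 2 genes higher than in saline were a smaller share than among all genes. The receptor chain Ifnar1 was at 46.3, 79.96 and 94.9 CPM in UBM, saline and PCL and Ifnar2 at 107, 141 and 115, while Ifngr1 was at 153, 277 and 221. Irf1, a target of interferon-gamma, was at 26.9, 94.8 and 19.4 CPM. It had its high value in saline, like the gamma-type members. Within F1 Irf1 was at 25.4, 128 and 30.6 CPM. The kinase Jak2 and the feedback inhibitor Socs1 went the other way, at 41.2, 25.9 and 22.3 CPM and 14.2, 7.41 and 7.90. Their highest cluster was R2 (133 and 27.7 CPM), which only UBM had. Between interferon-high and other F1 cells, with libraries pooled, the ratio was 1.61 for Irf1, 1.01 for Ifnar1 and 0.679 (0.598–0.769) for Ifngr1.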

How the data were processed

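The authors deposited 1 table of UMI counts per gene and cell with each cell's condition and cluster. Per the labels' protocols, cells were captured with 10x Chromium 3′ v2 chemistry, processed with CellRanger and clustered with Seurat on the 3 conditions together. The genome listed in the submitters' processing notes is hg38, while the gene symbols are those of mouse. Treatment of doublets is not given in the sources used here, and none was added. The members and lists were chosen with earlier results of these data known. Counts were summed per library and cluster and divided by total UMIs. Poisson intervals for levels, conditional binomial intervals for ratios and Clopper-Pearson intervals for shares (95%) came from scipy 1.17.1 in Python 3.11.15. Clusters were compared where both libraries had at least 30 cells. Thinning drew 2500 UMIs without replacement per cell (seed 1). The 1.5-fold rule and the ratio intervals were tested on simulated library sums. Every member could be named; other genes came only from the pathway and marker lists. The values of 1 pathway gene are not reported here, though the pathway counts include it. Alternatives were other scalings (TMM from edgeR 4.0.16, median of ratios, totals without ribosomal protein genes), limits, thinning depths, and leaving out clusters, top cells or cells with T or NK cell transcripts.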

Additional observations from a re-analysis of the deposited data

Results flagged for a closer look

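Some members differed from saline or UBM in opposite directions in different clusters, each by at least 1.5-fold. These differences between clusters were not tested, each cluster being 1 library a group.

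In UBM over saline, Ifit2 had a ratio of 1.69 in F1 and 0.302 in RP3. The ratio of Cmpk2 was 1.96 in F1 and 0.369 in RP3. Irf7 had a ratio of 3.01 in R1, against 0.361 in F1, 0.616 in FP1, 0.358 in R3 and 0.262 in RP2. For Ifi204 it was 2.36 in R1, against 0.513 in FP1, 0.611 in R3, 0.451 in RP2 and 0.473 in RP3. Ifi205 was at 3.13 in R1 and 0.0597 in R3, and Rtp4 at 4.1 in R1 and 0.478 in R3. Ifi27l2a stood at 2.59 in RP2 and 0.618 in R3. Gbp7 stood at 5.54 in FP1, against 0.34 in R1, 0.299 in R3 and 0.45 in RP3. The saline values of Rtp4 and Ifi205 in R1 and of Gbp7 in FP1 came from 4, 3 and 2 UMIs. That of Ifi205 in R3 came from 3 UMIs, and the interval of its ratio there was 0.00114 to 0.744.

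In PCL over saline, Ifit3 was at least 1.55-fold higher in FP1, where saline had 0 UMIs and a floor of 3 counts was used. Its PCL value in FP1, 9.51 CPM, was below the minimum of 10 CPM used for the counts of members. In F1 Ifit3 had a ratio of 0.588. The ratio of Irf7 was 1.8 in RP3 and 0.661 in F1. Gbp7 was at 3.82 in FP1, 0.654 in F1 and 0.648 in RP3.

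In PCL over UBM, the ratio of Ifit2 was 4.18 in RP3 and 0.336 in F1, and that of Rsad2 3.35 in FP1 and 0.542 in F1. Oasl1 stood at 2.28 in RP3 and 0.579 in F1. Ifi27l2a stood at 1.79 in RP3 and 0.652 in RP1. The 3 comparisons share libraries.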

How the results depend on the processing

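No paired analysis was possible because each group was 1 library with no replicate number. Of the counts of members and shares of interferon-high cells, 335 alternatives kept the direction and the size of the reported value. The others follow, in the order PCL, UBM, saline where 3 shares are given, and "higher" and "lower" are counts of members. The cause of these shifts was not tested unless the setting's own construction shows it.

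With at least 3 core members in place of 5, interferon-high cells were 63.9% of PCL and 59.5% of UBM F1 cells, 14.4%, 10.1% and 6.78% in FP1, 54.2%, 22.3% and 36.7% in RP3, and 17.9%, 7.996% and 16.4% outside F1. With at least 8 they were 18.2% of PCL and 29.2% of saline F1 cells, 0.634% of PCL and 0% of UBM FP1 cells, 10.8%, 0% and 6.12% in RP3, and 1.28%, 0.193% and 1.402% outside F1. Thinned to 1500 UMIs they were 26.6% of PCL and 40.3% of saline F1 cells, 1.93% of PCL FP1 cells, 15.2%, 1% and 7.69% in RP3, and 3.24%, 0.447% and 2.29% outside F1. Unthinned they were 69.7% of PCL and 65.1% of UBM F1 cells, 15.8%, 7.07% and 15.3% in FP1, 62.0% of PCL and 19% of UBM RP3 cells, and 20.5%, 8.85% and 16.6% outside F1.

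Where the interval also had to exclude 1, a rule chosen after seeing the data, PCL against UBM gave 1 lower in FP1, 10 higher and 1 lower in RP1, and 15 higher and 0 lower in RP2. PCL against saline gave 8 higher in FP1, 2 higher and 1 lower in RP2, and 11 higher and 2 lower in RP3. For UBM against saline there was 1 higher and 7 lower in FP1, 5 higher in R1, 0 higher and 17 lower in R3, 1 higher in RP2, and 0 higher and 14 lower in RP3.

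TMM and median of ratios scaling each gave 11 higher in RP1 for PCL against UBM. TMM moved the median log2 ratio of all genes from -0.07 to 0.04 in UBM against saline and from 0.18 to -0.03 in PCL against UBM within RP3, with member medians of -0.82 and 0.69. Totals without ribosomal protein genes and Malat1 gave 5 lower in FP1 for PCL against UBM and 2 higher for PCL against saline. A minimum of 1 UMI gave 9 lower in RP1, 4 lower in RP2 and 1 lower over all cells for PCL against UBM, and 6 higher in FP1 and 11 higher in RP2 for UBM against saline. A minimum of 50 CPM, which leaves fewer genes, gave 21 higher for PCL against UBM, 3 lower for PCL against saline and 21 lower for UBM against saline.

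Without cluster F1, PCL against UBM gave 17 higher and 1 lower, PCL against saline 9 higher, and UBM against saline 1 higher and 22 lower. The log2 ratio changed sign for Igtp in UBM against saline (0.063) and PCL against UBM (-0.037) and for Ifi47 in PCL against UBM (-0.17). Of the log2 ratios of single members without F1, 92 moved in size and 49 stayed the same. Over all alternatives, 1290 such ratios stayed the same, 147 moved and 3 changed sign. Without F2 and R3, PCL against saline gave 2 higher. Without cells that had a T or NK cell UMI, also chosen after seeing the data, UBM against saline gave 1 higher in R3. Without the top cell of each gene, PCL against UBM gave 13 higher and 5 lower in F1, 27 higher and 0 lower in FP1, 11 higher and 10 lower in RP1, and 4 lower in RP2. PCL against saline then gave 8 higher over all cells, and UBM against saline 3 higher in F1, 5 higher and 18 lower in R3, and 8 higher in RP2. Depth limits saline most, since 3 counts there are 1.59 CPM.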
